A study of Mus musculus with 6 samples.

Results

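The complement genes measured here are the C1q chain genes C1qa, C1qb and C1qc, the convertase genes C2, C3, C4b and Cfb, and the receptor genes C3ar1 and C5ar1. Their probes were found by matching the accession printed on the array design to RefSeq records, which gave 12 probes for all 9 genes, out of 23462 genes with a named probe. Of the 9 genes, 3 (C3, C4b and Cfb) had 2 probes and 6 had 1 probe. The samples were acinar cells, the enzyme-secreting cells of the pancreas, isolated from C57BL/6 mice, and each of the 6 samples was read on its own one-colour Agilent array. The KC group (n = 3) carries Ptf1aCre, in which Cre recombinase is made in the pancreatic lineage, together with a second allele that Cre switches on by removing a stop cassette (LSL). The KCS group (n = 3) carries the same alleles and also Setdb1flox/flox, so that Cre can recombine either copy of this gene, whose product methylates lysine 9 of histone H3. Both groups therefore carry Cre and the allele it switches on. Ptf1aCre is not known to act in macrophages, neutrophils or other blood-derived cells, but in which cells Cre acted here was not tested. Neither age nor sex is given in the labels, nor whether each sample was 1 animal, so p-values measure the spread between these samples, which may be in part technical. The series title places the comparison within a study of the requirement for Setdb1 in pancreatic ductal adenocarcinoma.

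Complement is a set of secreted and membrane proteins that mark cells and debris for uptake and recruit leukocytes. In the classical pathway C1q, built from A, B and C chains, binds antibody or damaged surfaces, and the proteases bound to it cut C4 and C2 to form an enzyme that splits C3. In the alternative pathway factor B, the product of Cfb, pairs with deposited C3 to form a convertase that amplifies the same step. The small fragments released from C3 and C5 act on C3ar1 and C5ar1, receptors of myeloid cells. Tissue macrophages are the main source of C1q, whereas C3, C4 and factor B are made in liver and, under inflammatory stimulation, by epithelial cells, fibroblasts and macrophages.

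Values are log2 signals after each array was scaled to its 75th percentile. The choice of scale matters here because KCS arrays had more probes well above background (35366 to 35920) than KC arrays (26550 to 27237). The 75th percentile itself was 61.2 to 68.6 scanner units in KC and 347 to 423 in KCS. The median difference over all 27102 rows tested was -0.19 on this scale and 2.70 when arrays were instead scaled to their spike-in controls. Each complement difference below is thus relative to the 75th percentile of its array. The acinar label was checked against 8 acinar markers, whose summed scaled signal (on a linear scale) was 20270 to 24003 in KC and 0.650, 11.6 and 1427 in KCS replicates 1, 2 and 3, so acinar transcripts were nearly absent from KCS replicates 1 and 2. In these bulk samples, fewer cells of a type and less RNA per cell cannot be told apart.

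Of the 9 complement genes, 8 rose in KCS, none fell and C4b did not pass the test. Over all rows, 60.3% were called at an adjusted p below 0.05, 25.9% as higher in KCS and 34.4% as lower. The fitted log2 difference of the 9 genes ran from 1.78 for C4b to 4.90 for C5ar1 (2.37 and 2.04 with the normexp background correction, and C5ar1 was well above background in 1 KC sample), with a median of 3.88 against -0.19 over all rows. The 3 KCS arrays lay above the 3 KC arrays in 8 of the 9 genes, as in 29.8% of all rows, while they lay below in none of the 9 and in 38.4% of all rows. The adjusted p of the 8 genes ran from 8.75e-05 for C1qb to 0.00517 for C3.

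**Figure D1:**
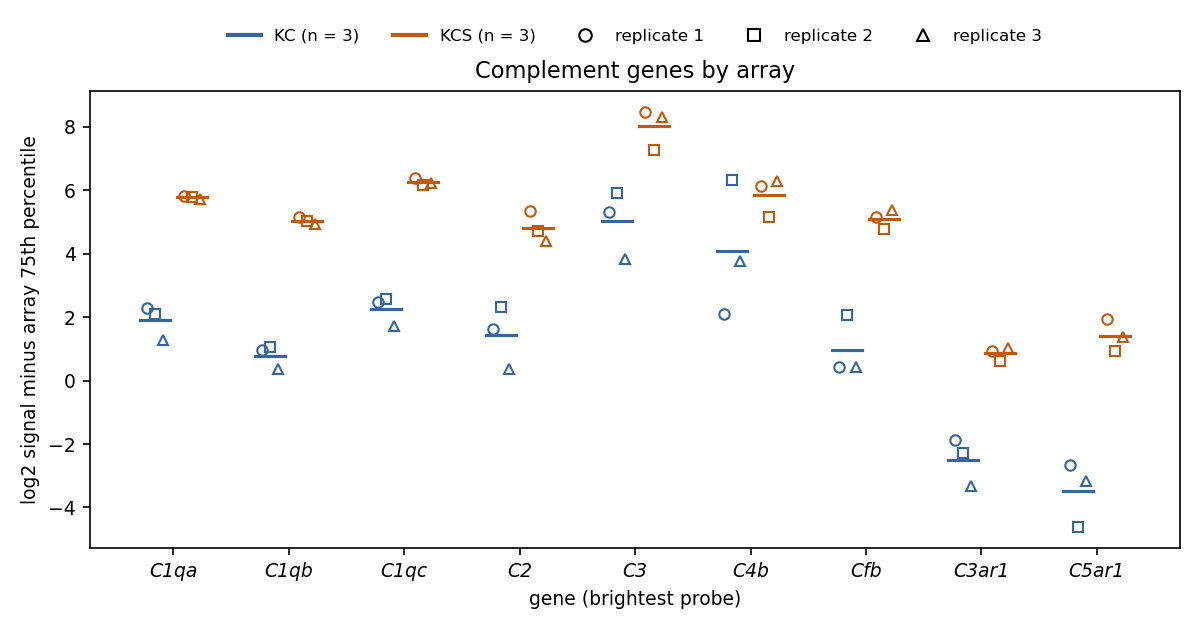
Scaled log2 signal of the brightest probe of each complement gene (y axis) on the 3 KC and 3 KCS arrays, with a symbol per replicate and a bar at each group mean. Groups are apart in every gene except C4b, where KC replicate 2, at 6.33, lies above all KCS arrays.

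The C1q chain genes rose together and by similar amounts. C1qa, which encodes the A chain, was 2.29, 2.10 and 1.29 in KC replicates 1 to 3 and 5.81, 5.79 and 5.72 in KCS replicates 1 to 3. It rose by 3.88 ± 0.29 on the log2 scale (SE, limma adjusted p = 0.000160), which is 14.8-fold. C1qb, for the B chain, was 0.96, 1.04 and 0.36 in KC and 5.16, 5.03 and 4.92 in KCS. It rose by 4.25 ± 0.23 (adjusted p = 8.75e-05), which is 19.0-fold. C1qc, for the C chain, was 2.47, 2.57 and 1.72 in KC and 6.39, 6.16 and 6.22 in KCS. It rose by 4.01 ± 0.27 (adjusted p = 0.000126), which is 16.1-fold. In all 3 genes KC replicate 3 was the lowest array, and the KCS arrays stood close together, with an SD of 0.05 to 0.12 against 0.37 to 0.53 in KC.

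The C1q genes also had nearly the same profile over the arrays. Likeness was measured as the root-mean-square difference between log2 profiles over the 6 arrays, each centred on its own mean, among 12734 other genes well above background on every array. By that measure C1qc was the nearest of all genes to C1qa (0.126), followed by the collagen cross-linking gene Loxl1 (0.141) and the membrane protein gene Emp1 (0.155). The nearest to C1qc were Ccdc80 (0.119), C1qa (0.126) and the transferrin gene Trf (0.134), and C1qb stood 4th (0.141). The nearest to C1qb were the nucleic acid sensor adaptor gene Sting1 (0.0715), the actin-binding gene Palld (0.0775) and the leukocyte signalling gene Vav1 (0.0898), with C1qc in 6th place and C1qa in 34th. With 6 arrays in 2 groups, this measure mostly reads the size of the group difference.

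The C1q genes are direct neighbours on chromosome 4, so their flanking genes were looked at as well. The promoter table of RefSeq (GRCm38.p6) held the sequence before the start of C1qb and C1qc, shown because these neighbours rose with the others by similar amounts. The C1qb window is chr4:136886201-136886450 and the C1qc window chr4:136892915-136893164, both on the minus strand and written 5′ to 3′ in the direction of the gene, with the last base next to the start. Capitals mark matches, on either strand, to any of the 8 motifs searched.
C1qb: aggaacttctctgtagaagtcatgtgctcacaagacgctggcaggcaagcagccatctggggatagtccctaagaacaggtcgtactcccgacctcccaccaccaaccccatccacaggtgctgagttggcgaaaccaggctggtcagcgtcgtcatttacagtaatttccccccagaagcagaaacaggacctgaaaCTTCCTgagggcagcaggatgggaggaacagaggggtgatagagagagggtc
C1qc: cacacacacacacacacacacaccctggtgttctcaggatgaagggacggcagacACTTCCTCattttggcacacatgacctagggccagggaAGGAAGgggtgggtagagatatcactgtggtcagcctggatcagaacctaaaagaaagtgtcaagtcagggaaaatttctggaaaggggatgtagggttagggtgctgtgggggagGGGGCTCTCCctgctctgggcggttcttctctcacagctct
The capitals in C1qb are a match to the ETS core AGGAAG on the opposite strand, 52 to 47 bases before the start. C1qc held this core in 2 places, 1 of them within a match to the longer PU.1-type site GAGGAAGT at 195 to 188 bases before the start. PU.1 is an ETS factor of myeloid cells. C1qc also held a match to the NF-kappaB consensus, 41 to 32 bases before the start. Over all 32851 promoter windows of 250 bases, 29.5% held the ETS core, 2.44% the PU.1-type site and 7.25% the NF-kappaB consensus, so a match to the core is common. The other motifs were AP-1 (TGANTCA), C/EBP (TTGCNNAA), GAS (TTCNNNGAA), the ISRE core and the TATA box (TATAAA), and these windows of C1qb and C1qc held none of them. A match describes letters and is not a binding site. Of the 3 protein-coding genes on each side of the C1q genes, 4 were tested. The receptor kinase gene Ephb2 rose by 3.34 ± 0.17 and the ligand gene Wnt4 by 2.21 ± 0.24, the receptor kinase gene Epha8 fell by 4.01 ± 1.24 (adjusted p = 0.0297), and the zinc finger gene Zbtb40 differed by 0.05 ± 0.21 (adjusted p = 0.841). The rise of the C1q genes was thus not shared by every gene beside them.

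Among the convertase genes, C2, C3 and Cfb rose. C2, the serine protease that joins C4 in the classical convertase, was 1.61, 2.31 and 0.37 in KC and 5.35, 4.73 and 4.38 in KCS. It rose by 3.39 ± 0.52 (adjusted p = 0.00187). Cfb, the matching protease of the alternative pathway, was 0.44, 2.08 and 0.42 in KC and 5.15, 4.78 and 5.37 in KCS. It rose by 4.12 ± 0.48 (adjusted p = 0.000625), which is 17.4-fold, and its second probe rose by 4.42 ± 0.43. In both genes KC replicate 2 was the highest KC array, and the groups did not overlap.

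C3, the protein on which all pathways converge, gave some of the brightest signals. Before scaling, the KC signal of its brightest probe was 863 to 4158 scanner units and the KCS signal 65666 to 139580. After scaling it was 5.32, 5.92 and 3.82 in KC and 8.47, 7.28 and 8.3 in KCS, so that the lowest KCS array stood above the highest KC array. C3 rose by 3.0 ± 0.59 (95% interval 1.57 to 4.43, adjusted p = 0.00517), which is 8.0-fold, and its second probe rose by 3.18 ± 0.54. The sequence before the start of C3 is shown because it carries a C/EBP match close to the start, and C/EBP factors are regulators of acute-phase genes. It is chr17:57228137-57228386 (GRCm38.p6, RefSeq), on the minus strand, written in the direction of the gene.
C3: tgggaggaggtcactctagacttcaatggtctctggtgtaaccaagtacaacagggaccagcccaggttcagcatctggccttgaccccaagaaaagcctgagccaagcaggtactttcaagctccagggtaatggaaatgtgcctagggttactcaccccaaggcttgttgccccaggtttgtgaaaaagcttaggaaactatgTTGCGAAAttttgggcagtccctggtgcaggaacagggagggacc
The capitals mark the match TTGCNNAA at 45 to 38 bases before the start, a motif that 9.56% of all promoter windows held, and none of the other 7 motifs was in this window. Of the windows of C3ar1 and C5ar1, that of C3ar1 held an AP-1 and a TATA match and that of C5ar1 the ETS core, and C2, C4b, Cfb and C1qa were not in the promoter table.

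C4b did not pass, and 1 KC array set it apart from the other genes. C4b, which encodes the C4 protein of the classical and lectin pathways, was 2.11, 6.33 and 3.77 in KC replicates 1 to 3 and 6.12, 5.15 and 6.28 in KCS. The log2 difference was 1.78 ± 1.02 (95% interval -0.66 to 4.23, adjusted p = 0.171). The second probe gave the same picture, with -0.50, 3.31 and 0.65 in KC, 3.20, 2.36 and 3.41 in KCS and a difference of 1.84 ± 0.93 (adjusted p = 0.131). KC replicate 2 thus lay above all KCS arrays with the brighter probe and within their range with the other. Without KC replicate 2, C4b was 2.92 higher in KCS (adjusted p = 0.0121), and without KC replicate 1 the difference was 0.80 (adjusted p = 0.423). The arrays of replicate 1 shared a slide, where the difference was 4.02, and on the other slide it was 0.67. C4a, a near-identical copy that makes the sex-limited protein and can share signal with C4b, was highest in KC replicate 2 among KC arrays as well (-3.20, 1.14 and -1.35 in KC and 1.33, 0.38 and 1.40 in KCS, a difference of 2.17 ± 1.04, adjusted p = 0.112).

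C2, Cfb and C4b lie close together on chromosome 17, in the class III part of the major histocompatibility complex, with Cfb next to C2. In the gene order used, which did not list C4a in this stretch, 5 protein-coding genes lay between C4b and Cfb. These and the 3 on either side of the group were all tested. Of these 11 neighbours 1 rose, 2 fell and 8 did not pass, with a median log2 difference of -0.05 and a range of -1.38 to 1.76. The one that rose was the steroid hydroxylase gene Cyp21a1, next to C4b, at 1.76 ± 0.62 (adjusted p = 0.0457). Nelfe, beside Cfb, was at -0.22 ± 0.17 and Zbtb12, beside C2, at 0.27 ± 0.17, and neither passed. Around C3, 4 of 5 tested neighbours rose, among them the cytokine gene Tnfsf14 (2.96 ± 0.22) and Vav1 (4.35 ± 0.24), and Gpr108 fell by 1.20 ± 0.19.

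**Figure D2:**
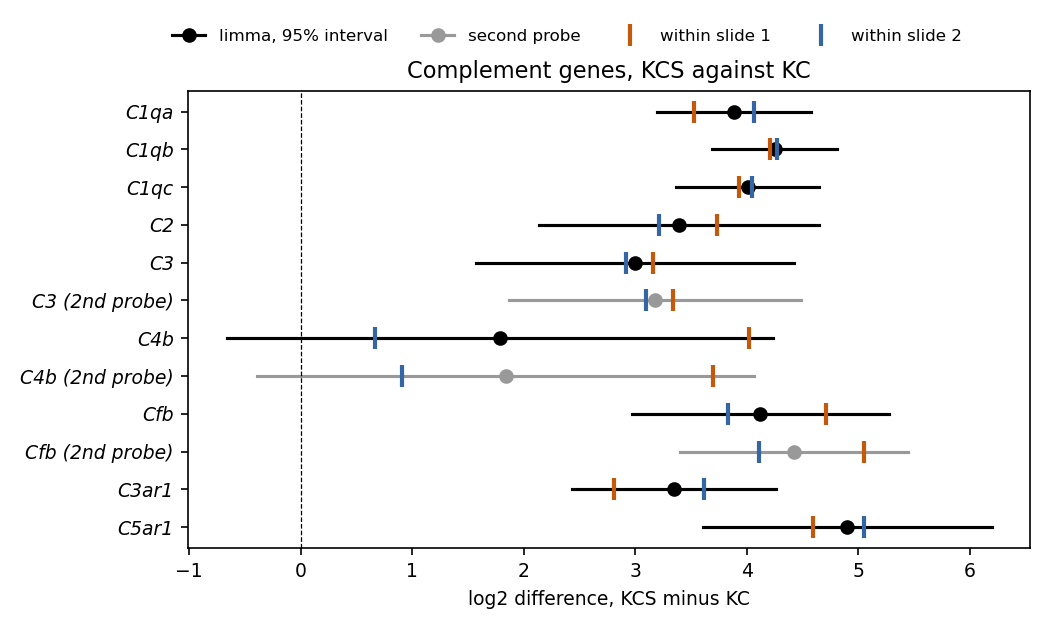
Log2 difference between KCS and KC (x axis) for each of the 12 probes, with the 95% interval of the limma fit and the difference within each slide. The intervals of both C4b probes include 0 and their slides lie far apart, while all other probes stay above 1.5.

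The receptor genes rose from signals at or near background. C3ar1, the receptor for the C3 fragment, was -1.88, -2.28 and -3.31 in KC and 0.93, 0.62 and 1.02 in KCS. It rose by 3.35 ± 0.38 (adjusted p = 0.000583), which is 10.2-fold. C5ar1, the receptor for the C5 fragment that draws in neutrophils and macrophages, was -2.65, -4.62 and -3.18 in KC and 1.94, 0.94 and 1.37 in KCS. It rose by 4.90 ± 0.54 (adjusted p = 0.000519), which is 29.8-fold. In KC, 2 of 3 arrays had C3ar1 well above background and 1 had C5ar1, so their KC levels rest in part on signal at background. With another background correction (normexp) the differences were 1.67 for C3ar1 and 2.04 for C5ar1, and both passed.

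Replicates differed more in KC than in KCS. The SD over replicates was larger in KC for 9 of 9 complement genes, as for 56.5% of all rows, and ran from 0.37 to 2.13 in KC and from 0.05 to 0.65 in KCS. KC replicate 3 was the lowest KC array in 7 of the 9 genes, and among all rows in 30.7%. By profile, C2 was nearest to the NF-kappaB feedback gene Tnfaip3 (0.194), S100a4 (0.251) and Dok2 (0.253). Cfb was nearest to Bcl3, a nuclear IkappaB family gene (0.198), Plac8 (0.200) and the chemokine receptor gene Ccr2 (0.276). C3 was nearest to Tubb2a (0.355), Ugt1a6b (0.370) and the myeloid lectin gene Clec4a1 (0.390), with C2 in 8th place (0.447). C4b had no close match, the nearest being Scd2 (0.613), Jak3 (0.736) and Epha4 (0.764).

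The wider complement system was mixed. Of 51 other complement genes, 36 passed the filter on dim probes, and of these 19 rose, 8 fell and 9 did not pass, against 25.9% higher and 34.4% lower over all rows. Their median log2 difference was 1.19. Of the 15 left out by the filter, Mbl1, C8a, C8b and C9, which are made chiefly in the liver, were not well above background on any array.

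Initiation genes moved mostly upward. Of 7 tested initiation genes 6 rose and 1 fell, with a median of 2.26. With normexp 5 of the 7 were higher and 2 lower. With no filter on dim probes 6 of 13 were higher and 6 lower (median -0.38). The C1q-bound proteases rose, with C1rb at 2.42 ± 0.22 (adjusted p = 0.000274, and 0.46 with normexp, with 2 of 3 KC samples well above background), C1s1 at 2.38 ± 0.27 and C1s2 at 2.26 ± 0.30. The copies C1ra and C1rb, and likewise C1s1 and C1s2, are near-identical and can share signal. The related gene C1rl fell by 2.02 ± 0.22, and was 0.87 higher with spike-in scaling. The lectin gene Mbl2, 1 of the 6, was not well above background in any KC sample, and no fold is given for it. In the alternative pathway the properdin gene Cfp, whose product stabilises the convertase, was 1.58, 2.26 and 1.03 in KC and 5.88, 5.25 and 5.05 in KCS, and rose by 3.77 ± 0.38 (adjusted p = 0.000372). The factor D gene Cfd, an adipocyte gene singled out after its values were seen, was well above background in KCS replicate 1 alone, at 3.97 against -5.78 and -5.38 in the other KCS arrays, and was not tested.

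The terminal genes build the membrane pore. Of 3 tested, none passed as higher in the reported fit, whereas all 3 did with spike-in scaling. C7 fell by 1.29 ± 0.32 (adjusted p = 0.0125, and 0.0546 with median centring) and C8g by 1.20 ± 0.27 (adjusted p = 0.00838), although both were higher with spike-in scaling (1.61 and 1.70), and C6 differed by 1.19 ± 0.45 (adjusted p = 0.0597) with no KC sample well above background, and passed as higher with median centring, with quantile normalization and with the replicate or the slide as a block, but as lower with normexp. The C5 gene Hc was not tested, being well above background on 2 of the 6 arrays, both KCS.

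Among fluid-phase regulators, 4 of 7 rose and 3 fell. The C1 inhibitor gene Serping1 rose by 3.17 ± 0.28 and the factor I gene Cfi, whose product cleaves deposited C3, by 3.14 ± 0.54. Vitronectin, encoded by Vtn, blocks the membrane pore, and its gene fell by 7.23 ± 0.48 (adjusted p = 0.000124), from 6.29, 6.20 and 5.71 in KC to -0.71, -2.25 and -0.53 in KCS. Cpn1, for the carboxypeptidase that trims the C3 and C5 fragments, fell by 4.33 ± 1.22 (adjusted p = 0.0210), with -4.21, -2.29 and 1.04 in KCS, and its call was lost without KCS replicate 2 or without any 1 of the KC arrays. Clusterin, encoded by Clu, fell by 0.66 ± 0.18 (adjusted p = 0.0179), but was higher with quantile normalization (1.66) and spike-in scaling (2.24) and at 0.07 with normexp. Without KC replicate 1 or without KCS replicate 2, only 1 of these 3 genes, Vtn, passed as lower.

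The membrane regulators and the remaining receptors moved less uniformly. Of 8 membrane regulators 3 rose, 1 fell and 4 did not pass. Cd59a, which blocks the membrane pore, rose by 2.63 ± 0.39, thrombomodulin (Thbd) by 1.15 ± 0.24 and the decay-accelerating factor gene Cd55 by 1.64 ± 0.40, although the other Cd55 probes were at 0.53 and 0.84 and the mean of its probes, at 1.01, did not pass (adjusted p = 0.100). Cd46 was called lower (-0.86 ± 0.28, and 2.04 with spike-in scaling) but no KC sample was well above background, and its call was lost without any of 4 single arrays (KC replicates 1 and 3, KCS replicates 1 and 3). The mouse C3b regulator Cr1l differed by 0.07 ± 0.16 (adjusted p = 0.728). Of 9 receptors 5 rose, 1 fell and 3 did not pass. Vsig4, 1 of the 5, was not well above background in any KC sample, and no fold is given for it. The leukocyte integrin genes Itgb2 and Itgax, which form complement receptor 4, rose by 3.49 ± 0.38 and 6.95 ± 0.86, although only 1 KC sample had Itgax well above background. The second Itgax probe was at 2.21, and Itgax was 4.58 with the mean of its probes and 4.78 with normexp. Itgam, which pairs with Itgb2 in complement receptor 3, was -0.90 ± 0.42 (adjusted p = 0.108) and passed as lower with the replicate or the slide as a block. With spike-in scaling all 9 receptors, Itgam among them, were called higher. The C5a receptor-like gene C5ar2, the second receptor of the C5 fragment, was higher by 2.98 ± 0.64 and Cd93 rose by 2.05 ± 0.29. C1qbp fell by 0.65 ± 0.16 (adjusted p = 0.0116), a direction that turned with spike-in scaling (2.25) and was at 0.03 with normexp. Without KC replicate 1 or KCS replicate 1, and also with array weights or normexp, 2 of the receptors were lower. With median centring none of them passed as lower.

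**Figure D3:**
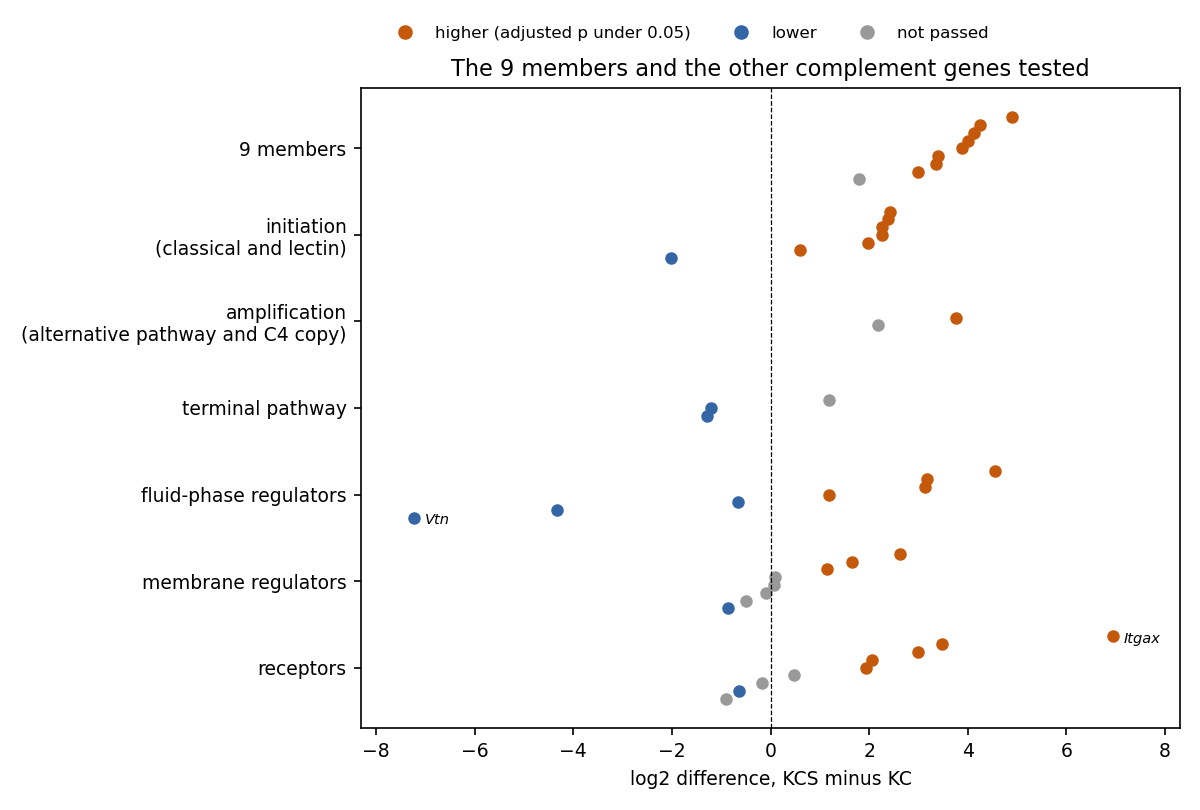
Log2 difference between KCS and KC (x axis) of the 9 complement genes and of 36 other complement genes in 6 role groups, 1 point per gene and colour by the test. The 9 genes lie to the right, initiation genes mostly so, and the regulators lie on both sides of 0, with Vtn at -7.23.

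Markers of several other cell types differed between the groups as well, in both directions. Of 10 macrophage markers 9 rose and none fell (median 3.67), among them Adgre1 (3.89), Lyz2 (5.54) and Csf1r (3.01), and Cd163 differed by 0.30 (adjusted p = 0.586). Their summed scaled signal was 22.7 to 34.5 in KC and 269 to 389 in KCS. Of 6 neutrophil markers 5 rose (3 with normexp, and 1 of the 2 that were well above background on every array), 2 of them with no KC sample well above background, and 1 fell, with summed signals of 145 to 243 in KC and 96.8 to 112 in KCS, mostly from Csf3r, which fell by 1.23 but did not pass with quantile normalization. Of 8 fibroblast markers 7 rose (median 2.56), with summed signals of 197 to 261 in KC and 1036 to 1291 in KCS. The T, B and mast cell lists held calls in both directions. Higher and lower were 1 and 2 of 3 T cell markers tested (median -1.52) and 1 and 1 of 5 B cell markers. For mast cells they were 2 and 1 of 4 markers (median 0.30). In these lists no higher marker was well above background in any KC sample. With the filter on all arrays, 2 T cell, 1 B cell and 1 mast cell marker were lower and none higher. Of 4 dendritic cell markers tested 3 rose and none fell (median 1.86), 2 of them with no KC sample well above background. With normexp 1 of these 4 rose and 3 fell. Of 5 endothelial markers 4 rose and none fell (median 0.88), or 2 rose without KCS replicate 1 or 2. Of 5 duct markers 3 rose (median 2.64), with summed signals of 32.5 to 42.0 in KC and 262 to 328 in KCS. Of 8 acinar markers all 8 fell, or 5 of 8 without KC replicate 2, KC replicate 3 or KCS replicate 2. Of 6 hepatocyte markers 3 were tested and all 3 fell, among them the albumin gene Alb (-3.40), and Apoa1 was not well above background on any array. The part of macrophage, fibroblast or duct cell content in the complement differences was not tested.

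The differences held under most other processing. Within the slide that held replicate 1 of each group the complement genes other than C4b differed by 2.81 (C3ar1) to 4.71 (Cfb), and within the other slide by 2.92 (C3) to 5.05 (C5ar1). With spike-in scaling all 9 genes were called higher, but so were 87.2% of all rows.

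**Figure D4:**
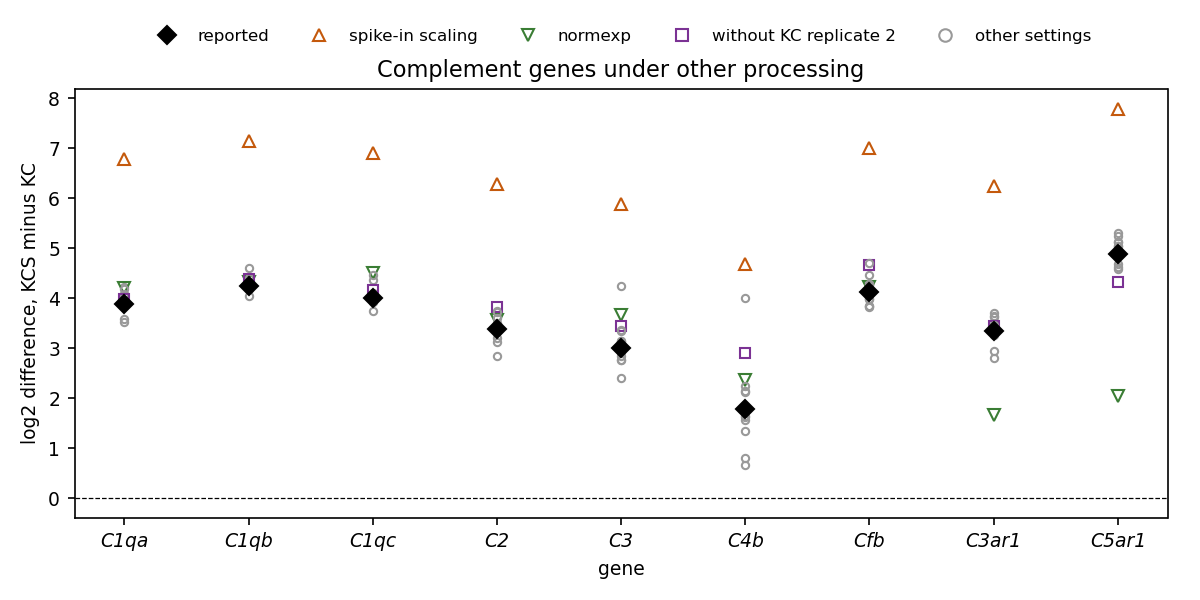
Log2 difference between KCS and KC (y axis) of each complement gene as reported (black diamonds) and under each other setting. Spike-in scaling raises all 9 genes, normexp lowers C3ar1 and C5ar1, and no setting takes any of them below 0.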

How the data were processed

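The deposited scanner files hold 62976 spots per array, of which 59305 carry 56605 non-control probes. Per the file headers, the scanner software was Feature Extraction 12.0.3.1 (Agilent), whose processed signal, a background-corrected intensity, the authors deposited. The deposited value table holds log2 values centred per probe and was used as an alternative. Here the processed signal was put on the log2 scale and shifted by the 75th percentile of each array's non-control probes. Spots marked as outliers were left out and spots of a probe averaged. A probe was tested if at least 3 of 6 arrays had it well above background. Accessions were matched without version to RefSeq (GRCm38.p6), which named 33767 probes. The brightest probe stood for a gene, and second probes were adjusted over 34485 probes. The files name the build mm9, so coordinates are given for promoters of the RefSeq table alone.

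The groups were compared with limma 3.58.1 (lmFit and eBayes, two-sided) in R 4.3.3 without covariates, with Benjamini-Hochberg adjustment over 27102 rows and a threshold of 0.05. SE is that of the fit and SD the spread of 3 arrays. Named were the 9 genes, up to 3 called genes per direction in each role group of other complement genes, chromosomal neighbours, and the 3 genes nearest by profile to each of the 7 genes well above background on every array. C4a, C5ar2, Cfd, C6, Hc, Itgam, Mbl2, Cr1l, Vsig4 and the marker examples were named outside that rule after their values were seen. Some items are not reported here. The members and lists were chosen with earlier results of these data known. Replicate numbers are not stated to pair the samples, and the reported fit did not pair them. The correlations of deviations from the group means were 0.331, 0.0433 and 0.143 for replicates 1 to 3. With so few arrays they cannot settle whether samples were paired. The number of arrays limits precision. The steps were tested on simulated data. Alternatives covered scaling, background correction, filters, probes, weights, blocks, slides and single arrays. Figures used Python 3.11.15 and matplotlib 3.10.9.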

Additional observations from a re-analysis of the deposited data

How the results depend on the processing

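For 8 of the 9 complement genes every alternative kept the direction and the call where the gene was measured (C3ar1 and C5ar1 were left out by the filter on all arrays, which gave 6 higher of 7). C4b passed in addition with normexp on median signals (2.37), spike-in scaling (4.68) and without KC replicate 2 (2.92). Leaving out single arrays gave 8 to 9 complement genes higher and 0 lower, 15 to 18 other complement genes higher and 6 to 8 lower, and over all rows 5706 to 6595 higher and 7694 to 8953 lower. Other complement genes called lower, 8 as reported, were 4 with median centring, 19 with no filter on dim probes, 5 on the second slide alone and 3 at a threshold of 0.01. With spike-in scaling 34 other complement genes were higher and 1 lower, and over all rows 23632 were higher and 772 lower, against 7016 and 9329 as reported. Over all rows 24768 were lower with no filter and 14923 with normexp. Higher calls made up 42.9% of all calls as reported, 56.5% with median centring, 31.1% with normexp and 22.3% with no filter. Signs turned for several genes. Among them were C1rl (0.87), C7 (1.61), C8g (1.70), Clu (2.24), Cd46 (2.04) and C1qbp (2.25) with spike-in scaling. Others were Clu with quantile normalization (1.66), and Clu (0.066) and C1qbp (0.027) with normexp. The cause of these moves was not tested, except that spike-in scaling shifts all rows upward and that dropping the filter adds dim probes. With the replicate block the counts over all rows were 6871 higher and 9581 lower, with 8 complement genes higher. The block changed no call of these 9 genes, while among the other complement genes C6 passed as higher, Itgam as lower, and Vsig4 no longer passed. Normexp was run on median signals, which was decided after seeing the data, in place of the mean signals planned. Signal at background limits the KC values of C3ar1 and C5ar1.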
